A study of Mus musculus with 24 samples.

Results

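The genes described here are 7 CC chemokines of the myeloid compartment, Ccl2, Ccl7, Ccl8, Ccl3, Ccl4, Ccl6 and Ccl9, and the receptors Ccr1 and Ccr2. These 9 members were taken by gene name from the deposited table of 54532 mouse genes, and all 9 passed the filter on low counts that left 19253 genes for testing. Bulk RNA sequencing was done on 24 mouse pancreatic tumours collected on day 24, in 4 groups of 6 named PBS (the saline control), GEM, IGEL and LIGEL. The abbreviations of the treated groups are not expanded in the labels. The title of the series speaks of priming with losartan, a blocker of the angiotensin receptor, and of a carrier for chemotherapy and immunotherapy. For the mouse strain, the age and the tumour line, nothing was given in the sources used here. Whether the samples within 1 group are 6 different mice is not stated, so each p-value reflects sample-to-sample spread that may be partly technical.

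Chemokines are small secreted proteins that guide white blood cells along a gradient, through receptors that couple to inhibitory G proteins. Ccl2 and Ccl7 act on Ccr2, which lets inflammatory monocytes leave the bone marrow and enter tissue. Ccl3, Ccl6 and Ccl9 act on Ccr1, which monocytes, macrophages and neutrophils carry, and Ccl4 is a close relative of Ccl3. In pancreatic tumours the axis of Ccl2 and Ccr2 is known for bringing in the monocytes from which tumour macrophages arise. In whole tumours, fewer cells of a type and less RNA per cell cannot be told apart.

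All ligands lie on chromosome 11 (mm10, GENCODE release 21) and both receptors on chromosome 9, and each member is a protein-coding gene. One group of ligand genes holds Ccl2 (82035571 to 82037453, plus strand), Ccl7 (82045712 to 82047525, plus) and Ccl8 (82115185 to 82116799, plus). The other holds Ccl9 (83572919 to 83578636, minus), Ccl6 (83587882 to 83593087, minus), Ccl3 (83647844 to 83649355, minus) and Ccl4 (83662584 to 83664683, plus). A stretch of 1456 kb separates Ccl8 from Ccl9, against 9.25 kb between Ccl9 and Ccl6 and 8.26 kb between Ccl2 and Ccl7. Ccr1 (123962124 to 123968692, minus) lies 133 kb from Ccr2 (124101950 to 124113557, plus). Counts cover whole genes, so exons and untranslated regions are not resolved. Ccl2 overlaps Gm17268 and Ccl6 overlaps E230016K23Rik on the opposite strand. Strand use in counting was not stated, but these partners reached at most 1 and 35 reads in any library, against at least 116 for Ccl2 and 557 for Ccl6.

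The 5' flanks of Ccl6, Ccl9 and Ccl3 are shown because Ccl6 and Ccl9 varied together most closely of the 36 pairs of members, and Ccl3 had the largest fold difference between groups. Each is the 250 bases before the RefSeq start (GRCm38.p6), read 5' to 3' on the gene's own strand, which is minus for all 3. Capitals mark letters that match a motif.
Ccl6, chr11:83593088-83593337: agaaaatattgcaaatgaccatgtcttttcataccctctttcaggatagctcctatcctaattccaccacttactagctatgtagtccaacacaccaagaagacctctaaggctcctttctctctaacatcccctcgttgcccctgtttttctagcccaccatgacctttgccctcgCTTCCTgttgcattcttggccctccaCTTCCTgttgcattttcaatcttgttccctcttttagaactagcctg
Ccl9, chr11:83578637-83578886: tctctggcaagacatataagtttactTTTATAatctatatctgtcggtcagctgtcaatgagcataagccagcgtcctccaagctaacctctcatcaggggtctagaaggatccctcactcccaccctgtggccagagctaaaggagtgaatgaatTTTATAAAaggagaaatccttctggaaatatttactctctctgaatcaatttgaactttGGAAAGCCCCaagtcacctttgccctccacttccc
Ccl3, chr11:83649379-83649628: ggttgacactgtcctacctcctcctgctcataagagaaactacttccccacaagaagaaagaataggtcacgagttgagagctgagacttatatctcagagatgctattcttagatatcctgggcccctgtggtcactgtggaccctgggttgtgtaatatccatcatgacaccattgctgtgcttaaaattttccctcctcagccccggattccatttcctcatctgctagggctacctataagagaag
The motifs searched on both strands were the NF-kB consensus, the ETS core AGGAAG and the TATA box TATAAA, and of 32851 flanks of this length 3.90%, 29.5% and 12.4% held them. Ccl6 held the ETS core on the minus strand, printed as CTTCCT, from -73 to -68 and from -47 to -42, counted back from the start. Both copies lie in a direct repeat of 14 bases, cttcctgttgcatt, and the AGGAAG letters were added to the search after this repeat was seen. Ccl9 held an NF-kB match on the minus strand from -35 to -26 and 3 TATA box matches, of which those from -94 to -89 and from -92 to -87 overlap on opposite strands. The flank of Ccl3 held none of these letters, which says nothing of what binds there. Ccl6 and Ccl9 shared the 13 bases gccctccacttcc, starting at -55 and at -14. RefSeq flanks were matched for 6 of the 9 members, namely these 3 and Ccl8, Ccr1 and Ccr2, and not for Ccl2, Ccl7 and Ccl4. Of the flanks not shown, that of Ccl8 held the ETS core on the minus strand from -241 to -236 and a TATA box match from -32 to -27. These matches are descriptions of letters and were not linked to a factor.

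Library totals ranged from 27.1 to 40.5 M reads assigned to genes. Pancreatic acinar genes took 36.2% of the counts of PBS replicate 5, whose TMM scaling factor of 0.548 was the lowest of the 24, while the median over the 24 libraries was 1.05%. The sample titles say muscle where the tissue label says pancreatic tumour, and 6 skeletal muscle genes summed to between 8.09 and 267 CPM (counts per M), with Myh4 at 0 throughout LIGEL, against 501 to 1560 CPM for 5 epithelial genes such as Krt19. The 267 CPM was in IGEL, while PBS, GEM and LIGEL reached at most 20.6, 18.3 and 22.2. By mean log2 CPM of the tested muscle genes IGEL replicate 4 was highest, at 5.98 against at most 3.33 elsewhere. That library also held the lowest Ccl2, Ccl6 and Ccl9 of IGEL, at 42.2, 44.3 and 37.0 CPM. The part of muscle tissue in the IGEL values was not tested. The column names of 6 libraries start with A1, A2 or A3 (GEM replicates 1 to 3, IGEL replicate 1, LIGEL replicates 1 and 2, none in PBS). A term for these 6 libraries called 18 of 19253 genes and no member. Values below are CPM scaled with TMM factors unless named otherwise, and results that rest on PBS replicate 5 are given with and without it.

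No member passed an adjusted p of 0.05 in any of the 6 contrasts by edgeR's quasi-likelihood test, and neither did any other gene, so the share of genes called was 0% throughout. For Ccl3 and Ccl6 the largest difference of the 6 contrasts lay in LIGEL against PBS, where the mean of Ccl3 was 1.16 ± 0.721 CPM against 3.87 ± 2.22, and that of Ccl6 was 68.5 ± 25.4 against 151 ± 81.6 (SD, n = 6). All 7 ligands had a fitted log2 fold change below 0 in that contrast, with a median of -0.61 (Ccl2, at -0.03, was at 0.02 with a replicate block), while 53.5% of all tested genes were below 0 with a median of -0.03. Both receptors lay above 0, Ccr1 at 0.43 and Ccr2 at 0.34. At an unadjusted p under 0.05, 2 of 9 members passed in LIGEL, both lower (Ccl3 and Ccl6), beside 20.5% of all genes in either direction and 14.2% lower. In IGEL 1 member passed (Ccl6, lower), beside 15% of all genes and 9.25% lower, and in GEM 0 passed, beside 4.81% of genes. Between treated groups, 2 members (Ccl3 and Ccl6, both lower) passed that threshold in LIGEL against GEM, beside 3.16% of all genes. None passed it in LIGEL against IGEL or in IGEL against GEM, beside 1.26% and 1.58%. Against PBS, with all 24 libraries, 2 of 9 and 1 of 9 members thus stand beside shares of a like size over all genes. Without PBS replicate 5, 4 of 9 members (Ccl3, Ccl6, Ccl7 and Ccl9) passed in LIGEL, beside 15.4% of all genes. In IGEL 3 of 9 (Ccl3, Ccl6 and Ccl9) passed without that library, beside 12.2%.

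These counts at an unadjusted p under 0.05 changed with single libraries in every contrast but IGEL against GEM, though in LIGEL against PBS never to fewer than 2. With each library left out in turn, 2 to 4 members passed in LIGEL against PBS, the 4 without PBS replicate 5 or without LIGEL replicate 5. In IGEL against PBS 0 to 3 passed: leaving out any of PBS replicates 1, 2 and 6 or IGEL replicates 2 and 4 gave 0, leaving out PBS replicate 5 gave 3, and leaving out PBS replicate 3, GEM replicates 4 or 6, or LIGEL replicates 4 or 5 gave 2. In GEM against PBS 1 passed without GEM replicate 4. In LIGEL against GEM 0 to 4 passed: 0 without GEM replicate 4, 1 without GEM replicate 2 or any of LIGEL replicates 1 to 4, and 4 without LIGEL replicate 5. In LIGEL against IGEL 2 passed without LIGEL replicate 5 (Ccl3 and Ccl4) and 1 without GEM replicate 4 (Ccl3), and in IGEL against GEM 0 passed throughout.

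**Figure D1:**
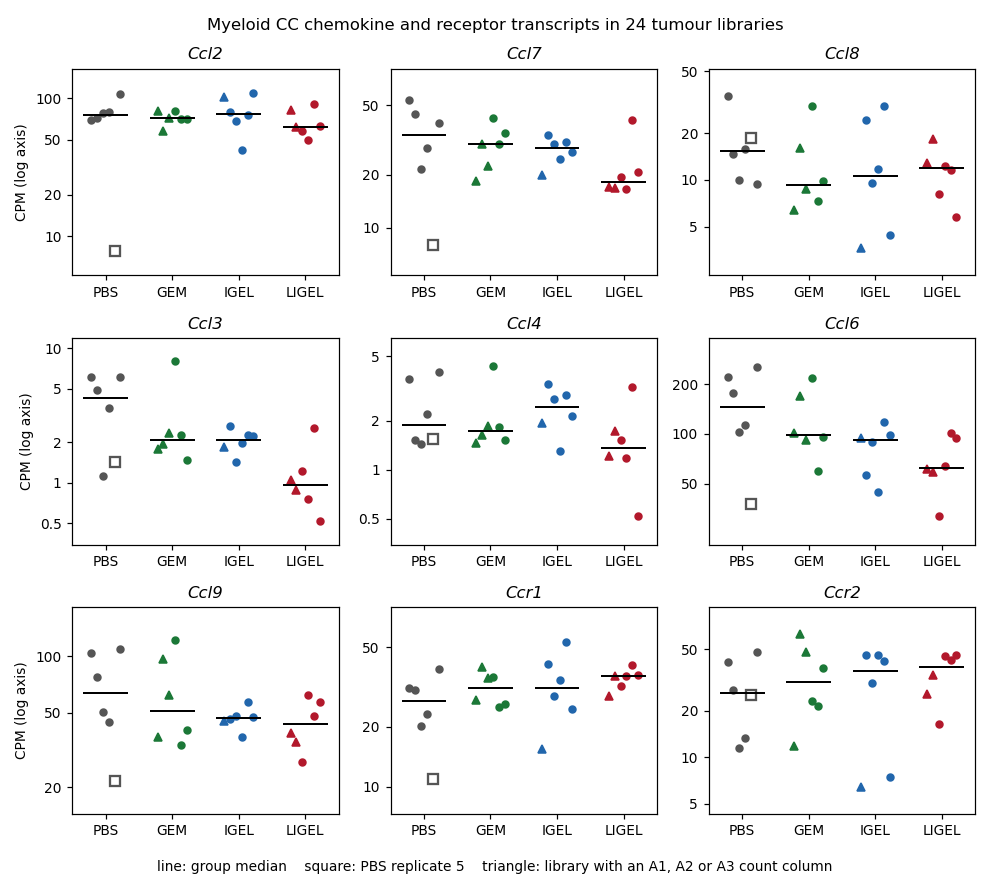
CPM of each member (log axis) in the 24 libraries by group, with a line at the group median, an open square for PBS replicate 5 and triangles for the libraries with an A1, A2 or A3 column. The LIGEL points of Ccl3 and Ccl6 lie below the PBS medians of 4.25 and 145 CPM, those of Ccr1 lie above its PBS median of 26.9, and PBS replicate 5 stands apart at 7.84 CPM of Ccl2.

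Among the ligands of Ccr2, Ccl2, the main chemoattractant of monocytes, was the most abundant member per length, with a median over the 24 libraries of 63.3 RPKM (CPM per kilobase of gene length). Its CPM ran from 7.84 through a median of 75.1 to 108 in PBS, from 57.7 through 71.5 to 80.4 in GEM, from 42.2 through 77.3 to 109 in IGEL, and from 49.8 through 62.4 to 91.0 in LIGEL. The groups overlapped throughout, and the value of 7.84 belongs to PBS replicate 5, far below the next lowest of the 24 at 42.2. Against PBS the log2 fold change of Ccl2 was 0.05 in GEM, 0.20 in IGEL and -0.03 in LIGEL. The LIGEL value had a 95% interval from -0.73 to 0.66. Without PBS replicate 5 the 3 values were -0.19, -0.04 and -0.27, and the SE in LIGEL went from 0.33 to 0.19.

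Ccl7, a second ligand of Ccr2 encoded next to Ccl2, had a median of 34.5 RPKM. It ran from 8.04 through 33.9 to 53.8 CPM in PBS (lowest, median, highest), from 18.5 through 30.02 to 42.1 in GEM, from 20.1 through 28.5 to 33.7 in IGEL, and from 16.7 through 18.2 to 40.9 in LIGEL. In LIGEL 5 of 6 libraries lay between 16.7 and 20.9 and replicate 5 stood alone above them. The log2 fold change of Ccl7 in LIGEL was -0.57 (SE 0.31, edgeR adjusted p = 0.297), and without PBS replicate 5 it was -0.77 (SE 0.25, edgeR adjusted p = 0.150). Ccl7 was the only member that the term for the A1 to A3 libraries put at an unadjusted p under 0.05, at -0.56 (edgeR adjusted p = 0.352).

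Ccl8, a related chemokine that in the mouse also acts on Ccr8, had a median of 22.9 RPKM. It spread widely within each group, from 9.40 through 15.3 to 34.8 CPM in PBS, 6.44 through 9.30 to 29.8 in GEM, 3.64 through 10.6 to 29.8 in IGEL, and 5.76 through 12.02 to 18.3 in LIGEL. Its coefficient of variation was 77.5% in IGEL and 68.2% in GEM. No order of the 4 groups exceeded that spread, and the log2 fold change of -0.58 in LIGEL had an interval from -1.56 to 0.40. PBS replicate 5, where Ccl2 was lowest, had 18.6 CPM of Ccl8, the second highest of its group.

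Among the remaining ligands, Ccl3, an inflammatory chemokine released by activated macrophages, was the scarcest member per length at 2.54 RPKM, with 17 to 268 reads per library. It ran from 1.12 through 4.25 to 6.13 CPM in PBS, from 1.49 through 2.09 to 7.96 in GEM, from 1.43 through 2.09 to 2.62 in IGEL, and from 0.521 through 0.963 to 2.55 in LIGEL. All 6 LIGEL and all 6 IGEL libraries lay below the PBS median, yet the groups overlapped, because PBS replicates 3 and 5 held 1.12 and 1.42 CPM. The log2 fold change in LIGEL was -1.74 (SE 0.46, 95% interval -2.70 to -0.78), with an edgeR adjusted p of 0.124. It ranked 155 of 19253 genes by p. The call turned on the library and the tool: without PBS replicate 5 the value was -1.90 (SE 0.45, edgeR adjusted p = 0.0477), where 173 genes or 0.886% of those tested were called, and Ccl3 was the only member among them.

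DESeq2 on all 24 libraries gave an adjusted p of 0.0101 for Ccl3 and of 0.0356 for Ccl6 in LIGEL against PBS, in a contrast where it called 1229 genes, or 6.38%. In IGEL it called 46 genes (0.239%) and no member, and in GEM 0 genes. Without the A1 to A3 libraries Ccl3 was at -1.62 in LIGEL (SE 0.58, edgeR adjusted p = 0.499), and with PBS replicate 5 left out as well at -1.77 (edgeR adjusted p = 0.395). Against the other treated groups Ccl3 in LIGEL lay at -1.34 from GEM (edgeR adjusted p = 0.999) and at -0.82 from IGEL (edgeR adjusted p = 0.9999). The group means ran in the order PBS, GEM, IGEL and LIGEL, and no 2 neighbours in that order passed an adjusted p of 0.05. The step from GEM to IGEL rested on GEM replicate 4, at 7.96 CPM against 2.33 in the nearest GEM library. The medians of GEM and IGEL were alike, at 2.091 and 2.094 CPM. IGEL and LIGEL came closest to separating, since 5 of 6 LIGEL libraries lay below the lowest IGEL library at 1.43 CPM. LIGEL replicate 5 at 2.55 overlapped the IGEL libraries.

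Ccl4, the neighbour of Ccl3 and likewise an inflammatory chemokine, was nearly as scarce, at 2.71 RPKM. It ran from 1.45 through 1.88 to 3.99 CPM in PBS, from 1.46 through 1.74 to 4.33 in GEM, from 1.31 through 2.43 to 3.36 in IGEL, and from 0.521 through 1.37 to 3.21 in LIGEL. Groups overlapped, and the fold changes against PBS were -0.18, -0.00 and -0.61 on the log2 scale in GEM, IGEL and LIGEL. The LIGEL value had an interval from -1.39 to 0.17. In IGEL, Ccl3 lay at -0.92 while Ccl4 lay at -0.00, and whether these 2 differ was not tested.

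Ccl6, a rodent chemokine of macrophages and other myeloid cells, took the most counts of the 9. It ran from 37.6 through 145 to 255 CPM in PBS, from 59.6 through 98.4 to 218 in GEM, from 44.3 through 91.6 to 118 in IGEL, and from 32.1 through 62.4 to 100.8 in LIGEL. Apart from PBS replicate 5 at 37.6 CPM, every PBS library was at or above 102 CPM, and every LIGEL library was at or below 100.8. How many other genes separate LIGEL from PBS by so narrow a gap once that library is set aside was not counted. Its log2 fold change was -0.31 in GEM (edgeR adjusted p = 0.843), -0.86 in IGEL (SE 0.38, edgeR adjusted p = 0.310) and -1.14 in LIGEL (SE 0.38, 95% interval -1.93 to -0.36, edgeR adjusted p = 0.131). Without PBS replicate 5 the LIGEL value was -1.34 (SE 0.34, edgeR adjusted p = 0.0627). Adding the acinar score of each library as a covariate to that fit gave an edgeR adjusted p of 0.0454 for Ccl6 and of 0.0354 for Ccl3, among 389 genes called (1.99%).

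Ccl9, encoded beside Ccl6 and likewise a ligand of Ccr1, had a median of 15.6 RPKM. It ran from 21.6 through 63.7 to 109 CPM in PBS, from 33.7 through 51.2 to 122 in GEM, from 37.0 through 46.7 to 56.8 in IGEL, and from 27.1 through 43.3 to 61.8 in LIGEL. All 6 IGEL and all 6 LIGEL libraries were below the PBS median, inside a PBS range widened by replicate 5 at its low end. The log2 fold change was -0.06 in GEM, -0.54 in IGEL and -0.61 in LIGEL (SE 0.34, edgeR adjusted p = 0.304). Without PBS replicate 5 it was -0.25 in GEM, -0.72 in IGEL (edgeR adjusted p = 0.346) and -0.79 in LIGEL (SE 0.31, edgeR adjusted p = 0.229). Between LIGEL and IGEL, with all 24 libraries, the log2 fold change was -0.07, with an interval from -0.77 to 0.63.

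**Figure D2:**
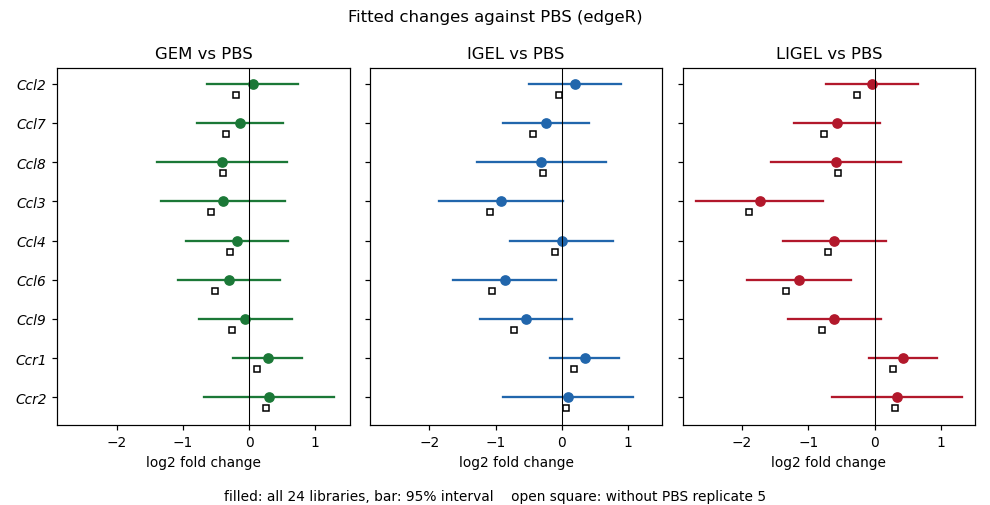
Fitted log2 fold change of each member against PBS in GEM, IGEL and LIGEL (filled points with 95% intervals, edgeR, 24 libraries), and the same without PBS replicate 5 (open squares). In LIGEL, Ccl3 at -1.74 and Ccl6 at -1.14 have intervals below 0, and Ccr1 and Ccr2 lie to the right of 0 in each panel.

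Of the receptors, Ccr1, the receptor of Ccl3, Ccl6 and Ccl9, was measured at a median of 11.1 RPKM. It ran from 11.01 through 26.9 to 38.8 CPM in PBS, from 25.1 through 31.1 to 39.8 in GEM, from 15.6 through 31.4 to 53.1 in IGEL, and from 28.5 through 35.8 to 40.6 in LIGEL. All 6 LIGEL libraries lay above the PBS median, within the PBS range except for the highest. The log2 fold change was 0.28 in GEM, 0.35 in IGEL and 0.43 in LIGEL (SE 0.25, 95% interval -0.09 to 0.95, edgeR adjusted p = 0.324). PBS replicate 5 had the lowest Ccr1 of the 24 libraries, and without it the LIGEL value was 0.28 (edgeR adjusted p = 0.567).

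Ccr2, the monocyte receptor of Ccl2 and Ccl7, had a median of 4.78 RPKM. It ran from 11.4 through 26.2 to 47.8 CPM in PBS, from 11.9 through 30.5 to 62.8 in GEM, from 6.45 through 36.2 to 45.7 in IGEL, and from 16.4 through 38.5 to 46.1 in LIGEL. The groups overlapped almost completely, with a log2 fold change of 0.34 in LIGEL and an interval from -0.64 to 1.32. PBS replicate 5 held 25.1 CPM of Ccr2, near the middle of its group.

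Each receptor was also set beside its ligands within a library, as the log2 ratio of ligand to receptor CPM. This ratio was chosen after the values were seen and is given as a description with no test. The ligands were by then known to lie lower in LIGEL and Ccr1 higher, which favours separate ranges of their ratio. No member alone separated any 2 groups. How many other pairs of genes separate LIGEL from PBS in this way was not counted. Ccl6 to Ccr1 had group medians of 2.44 (PBS), 1.88 (GEM), 1.397 (IGEL) and 0.97 (LIGEL), and the highest LIGEL library (1.38) lay below the lowest PBS library (1.77). Ccl9 to Ccr1 had medians of 1.33, 0.73, 0.45 and 0.34 in the same order, and again the highest LIGEL value (0.79) was below the lowest PBS value (0.93). Ccl3 to Ccr1 had medians of -2.67, -3.88, -4.01 and -4.98, with LIGEL reaching up to -3.96 and PBS down to -4.10, so these groups overlapped. The ratios of Ccl2 and Ccl7 to Ccr2 overlapped between all groups, with medians of 1.28 in PBS and 0.97 in LIGEL for Ccl2. For Ccl7 the medians of PBS, GEM, IGEL and LIGEL were 0.54, 0.18, -0.23 and -0.81 in that order, with PBS spanning -1.64 to 1.09 and LIGEL -1.43 to 0.24.

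The members were then set beside the macrophage RNA of each library, as log2 CPM minus the mean log2 CPM of 12 macrophage genes such as Csf1r, C1qa and Mrc1. That list summed to 844 to 1991 CPM among PBS libraries, 918 to 1964 among GEM, 627 to 1758 among IGEL and 1066 to 1484 among LIGEL libraries, with no gene at 0. Its median log2 fold change in LIGEL was -0.01, with 5 of 12 genes higher and none called, and without PBS replicate 5 it was -0.12, with 3 of 12 higher. An exact two-sided permutation test compared 6 with 6 libraries, and its smallest possible p is 0.00216. A single comparison at that p could not reach an adjusted p under 0.05 over 27 comparisons. By this test 0 of 27 comparisons with PBS passed after Benjamini-Hochberg adjustment, and 3 had an unadjusted p under 0.05. The 0 of 27 therefore does not show that the ratios were alike.

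Relative to these genes, Ccl3 in LIGEL lay at -6.05 ± 0.73 against -4.44 ± 0.75 in PBS (SD, n = 6), a difference of -1.61 with all 6 LIGEL libraries below the PBS median (exact permutation p = 0.00649, adjusted p = 0.175). Ccl6 differed by -1.01, again with 6 of 6 below (exact permutation p = 0.0346, adjusted p = 0.331). Ccr1 lay higher relative to macrophage genes, by 0.58 in IGEL with 6 of 6 libraries above the PBS median (exact permutation p = 0.0368, adjusted p = 0.331) and by 0.51 in LIGEL, again with 6 of 6 above (exact permutation p = 0.0628, adjusted p = 0.419). PBS replicate 6 carried the highest Ccr1 value of its group. When each library was left out in turn, both Ccr1 differences passed only without this one, at 0.76 in IGEL and 0.70 in LIGEL (exact permutation, adjusted p = 0.0292 for each). That removal takes away the single PBS value above all treated libraries and leaves no overlap with IGEL or LIGEL, so the values without it describe how much rests on 1 library and support no difference.

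**Figure D3:**
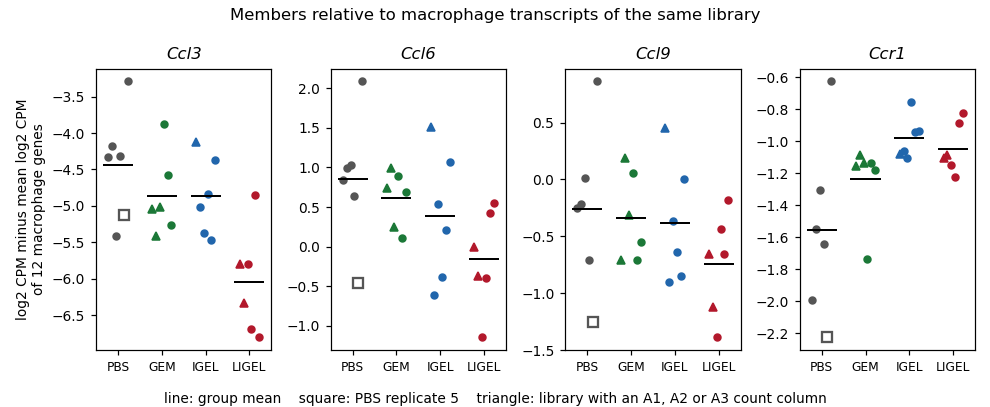
log2 CPM of Ccl3, Ccl6, Ccl9 and Ccr1 minus the mean log2 CPM of 12 macrophage genes in each of the 24 libraries, with a line at the group mean. The LIGEL mean of Ccl3 is -6.05 against -4.44 in PBS, and for Ccr1 a single PBS library (replicate 6, the top point at -0.63) lies above all treated libraries.

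Markers of other cell types were read in the same libraries. In LIGEL against PBS the 12 acinar genes had a median log2 fold change of -3.04 with 0 of 12 higher, but of 0.08 with 8 of 12 higher without PBS replicate 5, so the lower value came from that library. The 7 fibroblast genes had a median of -0.89, the 7 neutrophil genes of -0.50 and the 6 T cell genes of 0.49 (-0.86, -0.60 and 0.53 without PBS replicate 5), with none of these genes called. The 6 monocyte genes such as Ly6c2 and Lyz2 had a median of -0.09, with 2 of 6 higher, and without PBS replicate 5 of -0.20, with 1 of 6 higher. The summed neutrophil genes, whose cells carry Ccr1, ranged from 32.8 to 490 CPM in PBS (median 226) and from 140 to 891 in LIGEL (median 517), so that their summed level and their median log2 fold change differ in sign. The part of these cell types in the values of Ccl3 and Ccl6 was not tested.

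Within groups, 8 pairs of ligands, receptors and neighbours were related over the 24 libraries, on log2 CPM with each group's mean removed, by a permutation test within groups with Benjamini-Hochberg adjustment over the 8. The neighbours Ccl3 and Ccl4 varied together, with Pearson r = 0.79 (permutation p = 4e-05, adjusted p = 0.00028) and Spearman rho = 0.70 (permutation p = 0.00068, adjusted p = 0.00181). Leaving out the 2 libraries farthest on Ccl3 gave r = 0.74, and leaving out the A1 to A3 libraries gave r = 0.79. Ccl9 and its receptor Ccr1 varied together, with r = 0.68 (permutation p = 7e-05, adjusted p = 0.00028) and rho = 0.70 (permutation p = 0.00024, adjusted p = 0.00096), and r = 0.58 without the 2 farthest libraries. Without PBS replicate 5 that r was 0.53 (permutation, adjusted p = 0.00272). Outside the 8 pairs, Ccr1 had r = 0.70 with Ccl7 (0.51 without PBS replicate 5) and 0.93 with Naaa. An r of this size was thus not particular to Ccl9 and its receptor.

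The receptors Ccr1 and Ccr2 varied together at r = 0.66 (permutation p = 0.00245, adjusted p = 0.00653) and rho = 0.78 (permutation p = 0.0002, adjusted p = 0.00096), and at r = 0.73 without the 2 farthest libraries. Ccl3 and Ccr1 had r = 0.52 (permutation p = 0.00668, adjusted p = 0.0134) and rho = 0.57 (permutation p = 0.00617, adjusted p = 0.0123), and r = 0.56 without the 2 farthest. Ccl6 and Ccr1 had r = 0.58 (permutation p = 0.0105, adjusted p = 0.0169) and rho = 0.54 (permutation p = 0.0135, adjusted p = 0.0215). The Pearson relation rested on PBS replicates 5 and 6, since r was 0.31 without both and 0.36 without PBS replicate 5 alone (permutation, adjusted p = 0.114), while rho without PBS replicate 5 was 0.47.

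No relation of Ccl2 passed after adjustment. Ccl2 and its neighbour Ccl7 had r = 0.68 but rho = 0.29 (permutation p = 0.0485 and 0.182, adjusted p = 0.0646 and 0.182), and without PBS replicate 5 r was 0.12 (permutation, adjusted p = 0.574). Ccl2 and its receptor Ccr2 had r = -0.20 and rho = -0.35 (permutation p = 0.378 and 0.0873, adjusted p = 0.378 and 0.0998), with r = -0.56 when PBS replicates 5 and 6 were left out. Ccl7 and Ccr2 had r = 0.33 and rho = 0.43 (permutation p = 0.0973 and 0.0431, adjusted p = 0.111 and 0.0574). Without PBS replicate 5 the r of Ccl7 and Ccr2 was 0.48 (permutation, adjusted p = 0.0261). In the 18 libraries outside A1 to A3, r was 0.78 for Ccl9 and Ccr1, 0.51 for Ccr1 and Ccr2, 0.65 for Ccl3 and Ccr1 and 0.74 for Ccl6 and Ccr1. It was 0.82 for Ccl2 and Ccl7, -0.12 for Ccl2 and Ccr2 and 0.27 for Ccl7 and Ccr2 there. PBS replicate 5 is among these 18 libraries, and r in them without it was not computed.

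**Figure D4:**
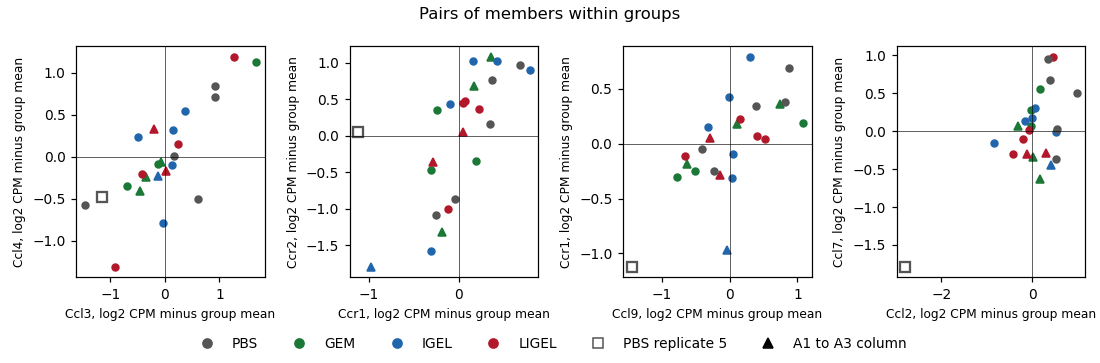
Log2 CPM minus the group mean for 4 pairs of members in the 24 libraries, coloured by group. Ccl3 with Ccl4 (r = 0.79), Ccr1 with Ccr2 (r = 0.66) and Ccl9 with Ccr1 (r = 0.68) form bands, while for Ccl2 with Ccl7 the open square of PBS replicate 5 lies far from the others, and r falls from 0.68 to 0.12 without it.

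Over the same 24 libraries, the genes with the pattern most like each member were sought among 12906 tested genes with a mean of at least 1 CPM, by the Pearson r of log2 CPM after removing group means. These r values are descriptions, since all genes share the libraries and their scaling. Ccl6 and Ccl9 were each other's closest gene (r = 0.89, and 0.84 without PBS replicate 5), followed by Osm and Flot2 for Ccl6 and by Golm1 and Snx2 for Ccl9. Ccl3 was closest to Rgs1 (0.86), Cd53 and Ccl4, and Ccl4 to Ccl3, Rgs1 and Marco. Ccl8 was closest to Tspan32 (0.93), Il10ra and Ms4a7, the last of which is in the macrophage list. Ccr1 was closest to Naaa (0.93), Ms4a6d and Plcg2, and Ccr2 to Rasgrp4 (0.87). For Ccl7 the genes were Ddias (0.92), Atg7 and Lin9. For Ccl2 they were H3f3b (0.94), Slc39a6 and Nxn, and these lost most without PBS replicate 5, to 0.70 for H3f3b.

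The rest of the CC chemokine system gave the setting for these values. Of 13 other CC ligands 10 were tested (Ccl19, Ccl20 and Ccl21a were too low), and in LIGEL against PBS 5 were higher and 5 lower, with a median of 0.03 and none called (-0.00 without PBS replicate 5, again 5 and 5). The smallest p-values among them belonged to Ccl11, which draws eosinophils, and to Ccl28, a mucosal chemokine. Ccl11 had a log2 fold change of -1.41 (edgeR adjusted p = 0.180) and Ccl28 of -1.95 (edgeR adjusted p = 0.224). Ccl28 was near the floor, with a mean of 0.419 CPM in PBS and 0.103 in LIGEL. Leaving out PBS replicate 5 put Ccl11 at -0.58 (edgeR adjusted p = 0.596) and Ccl28 at -1.68. Of 13 other CC receptors and scavengers 9 were higher and 4 lower, with a median of 0.33 and none called, against 10 higher and 3 lower and a median of 0.21 when PBS replicate 5 was left out. Ackr4, a scavenger of homeostatic chemokines, lay at -2.11 (edgeR adjusted p = 0.136), and Ccr4, a receptor of T cells, at 1.14 (edgeR adjusted p = 0.182), against -1.96 and 0.91 without that library.

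Genes that carry the signal of these receptors and genes of NF-kB and inflammation were lists of their own. Of 11 signalling genes 9 were higher and 2 lower in LIGEL, with a median of 0.14 and none called. These became 7 higher and 4 lower, with a median of 0.06, when PBS replicate 5 was left out. Arrb1, a beta-arrestin that turns receptors off, had the smallest p, with a log2 fold change of 0.47 (edgeR adjusted p = 0.229), followed by the receptor kinase Grk2 at 0.16 (0.37 and 0.10 without that library). The other list held 12 genes of NF-kB and inflammation: subunits, inhibitors and targets of NF-kB, a factor known to induce Ccl2, Ccl3 and Ccl4. Of these 9 were higher and 3 lower in LIGEL, with a median of 0.14 and none called, and without PBS replicate 5 it was 7 and 5, with a median of 0.03. The smallest p-values there were those of Nfkb1, an NF-kB subunit, with a log2 fold change of 0.38 (edgeR adjusted p = 0.206) and of the cytokine Il1b at 1.25 (edgeR adjusted p = 0.216). Nfkb1 was at 0.24 without that library and Il1b at 1.003.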

How the data were processed

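The authors deposited raw read counts per gene (no normalization) for 24 libraries, with gene lengths and coordinates, per the file header. Per the submitters' processing notes, the tools were HISAT2 and featureCounts (Subread) on mm10, with no versions. The filterByExpr function (minimum count 10, minimum total count 15) kept 19253 genes and removed 0.0666% of counts. In R 4.3.3, edgeR 4.0.16 fitted all 24 libraries with TMM factors, a mean per group and the robust quasi-likelihood test for 6 contrasts. P-values were adjusted by Benjamini-Hochberg over all tested genes (threshold 0.05). Log2 CPM used a prior count of 2, RPKM used the deposited lengths, and relations used 100000 permutations in Python. Alternatives were DESeq2 1.42.0, RLE factors, no filter, a replicate block, the A1 to A3 libraries removed or as a term, an acinar covariate, a monocyte reference list, a prior count of 0.5, and each library left out. Combinations that leave out PBS replicate 5 were chosen after seeing the data. The edgeR script was tested on simulated counts. The members and lists were chosen with earlier results of these data known. Named are all 9 members, the 2 smallest p-values in LIGEL against PBS of each other list of the chemokine system, and the 3 most alike genes per member, leaving out predicted genes and pseudogenes. For Ccr2 the closest gene alone is given, and the others are not reported here.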

Additional observations from a re-analysis of the deposited data

Results flagged for a closer look

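Within each group of 6, a library was marked where its gap to the nearest other library exceeded Dixon's 95% critical share of the group's range, which chance gives in about 1 of 20 groups. This held in 5 of 36 combinations of member and group. GEM replicate 4 held 7.96 CPM of Ccl3, next to 2.33 in the nearest GEM library, and 4.33 CPM of Ccl4, next to 1.87. LIGEL replicate 5 held 2.55 CPM of Ccl3, next to 1.22, and 40.9 CPM of Ccl7, next to 20.9. PBS replicate 1 held 34.8 CPM of Ccl8, next to 18.6 in PBS replicate 5.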

How the results depend on the processing

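RLE factors, no filter and the A1 to A3 settings called no gene and no member in any contrast. In LIGEL against PBS, DESeq2 called 1229 genes and 2 members (46 genes in IGEL), the acinar covariate 7 genes, and that covariate with PBS replicate 5 removed 389 genes and 2 members (94 genes in IGEL). Leaving out 1 library at a time gave 0 to 173 genes and 0 to 1 members in LIGEL and 0 to 18 genes in IGEL, with PBS replicate 5 behind each highest value, and 2 genes in LIGEL when PBS replicate 4 was dropped and 4 when GEM replicate 4 was. The ratio to macrophage genes passed in 0 to 2 of 27 comparisons, the 2 without PBS replicate 6. The differences of Ccl3 and Ccl6 in LIGEL kept their direction in every setting run. With a replicate block 0 genes and 0 members were called. Samples of the same replicate number had correlations from -0.59 to 0.71, over 0.1 in 14 of 36 pairs, so these numbers were not taken to pair the samples. The highest, 0.71, lay between replicate 1 of IGEL and replicate 1 of GEM, the 2 libraries whose columns are named A1. The next, 0.63, lay between replicate 4 of LIGEL and of IGEL, whose columns have different numbers. Whether the libraries that share a column number share a source was not tested.

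No value that changed sign was called. Log2 fold changes against PBS were -0.033 for Ccr2 in IGEL and 0.023 for Ccl2 in LIGEL with a replicate block, and 0.0026 for Ccl4 in IGEL with no filter. They were -0.0031 for Ccl2 in GEM and 0.035 for Ccl4 in IGEL with the acinar covariate, and -0.23 for Ccl2 in GEM and -0.16 in IGEL with PBS replicate 5 removed as well. A term for the A1 to A3 libraries gave -0.0085 for Ccl2, 0.11 for Ccl7 and 0.024 for Ccl9 in GEM and 0.054 for Ccl4 in IGEL. Without those libraries they were 0.11 for Ccl7, 0.078 for Ccl4 and -0.034 for Ccr2 in GEM, 0.022 for Ccl4 in IGEL and 0.059 for Ccl9 in LIGEL against IGEL. Without PBS replicate 5 too, they were -0.16 for Ccl2, -0.0078 for Ccr1 and -0.048 for Ccr2 in GEM, -0.12 for Ccl2 in IGEL and 0.053 for Ccl9 in LIGEL against IGEL. For the ratio, a monocyte reference gave -0.028 for Ccr2 in GEM and -0.26 for Ccl7, -0.17 for Ccl4 and -0.34 for Ccr2 in IGEL. Leaving out PBS replicate 5 and the A1 to A3 libraries gave ratios of -0.080 for Ccl2, 0.036 for Ccl7 and 0.022 for Ccl4 in GEM, -0.026 for Ccl2 and -0.16 for Ccl7 in IGEL, and -0.30 for Ccl2 in LIGEL.

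With 1 library left out, fold changes ranged in GEM from -0.19 to 0.22 for Ccl2, -0.35 to 0.062 for Ccl7, -0.52 to 0.025 for Ccl4 and -0.33 to 0.13 for Ccl9. In IGEL they ranged from -0.039 to 0.37 for Ccl2, -0.68 to 0.021 for Ccl8, -0.13 to 0.20 for Ccl4 and -0.072 to 0.32 for Ccr2, and in LIGEL from -0.27 to 0.14 for Ccl2. Between LIGEL and IGEL they ranged from -0.46 to 0.10 for Ccl8, -0.17 to 0.042 for Ccl9 and -0.049 to 0.27 for Ccr1. Ratios ranged in GEM from -0.27 to 0.14 for Ccl7, -0.13 to 0.58 for Ccl2, -0.38 to 0.0057 for Ccl4, -0.51 to 0.0028 for Ccl6 and -0.28 to 0.14 for Ccl9. In IGEL they ranged from -0.11 to 0.36 for Ccr2, -0.069 to 0.35 for Ccl7 and -0.32 to 0.10 for Ccl9, and in LIGEL from -0.21 to 0.50 for Ccl2. The cause of these changes was not tested. Among the members, depth limits Ccl3 and Ccl4 most, with as few as 17 reads in a library.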
